A study of Mus musculus with 21 samples.

Results

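Soat2, Akr1b7, Cyb5r2, B4galnt2, Vmn2r3 and Fam227b were the 6 genes examined, out of 14732 genes in the table. They had been selected on their raw read counts, near 0 in wild-type heart and high in hearts without Taz, so the contrast of KO with WT is described here with values and carries no test. All 6 were among the 12333 genes that passed the filter on low counts, through the KO libraries alone. Taz encodes tafazzin, the acyltransferase that remodels cardiolipin, the signature lipid of the inner mitochondrial membrane, and its loss in people causes Barth syndrome. Heart ventricle RNA was sequenced from TAZ KO/Y males and WT/Y littermates aged 2 months, in 21 libraries. Each genotype was represented by 4 libraries in BL6J (C57/J) and by 3 in CAST-F1, while AJ-F1 gave 4 of WT and 3 of KO. The labels name no agent and no Cre or promoter, and leave unsaid how the KO allele was made. They also do not state whether the libraries are from different animals, so p-values measure the spread between these samples, which may be technical.

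The 6 genes have little in common in their usual biology. Soat2 (sterol O-acyltransferase 2, also called ACAT2) joins cholesterol to a fatty acid in intestine and liver, where the esters are packed into lipoproteins. Akr1b7 is an aldo-keto reductase of the aldose reductase family, made in mouse vas deferens and adrenal cortex, that reduces aldehydes, including those from lipid peroxidation. Cyb5r2 is an NADH-cytochrome b5 reductase, a flavoprotein that passes electrons from NADH to cytochrome b5. B4galnt2 is a Golgi enzyme that adds N-acetylgalactosamine to sialylated glycans and so makes the Sda antigen, mainly in intestine. Vmn2r3 is a type 2 vomeronasal receptor, one of a large family of pheromone receptors, and Fam227b is a little-characterised gene.

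The start regions of these genes are shown first, because a start can be compared with the neighbouring genes described further on. RefSeq promoters on GRCm38.p6, of 250 bases before the start and 50 from it, matched 5 of the 6 genes, all but Soat2. Of 5 motifs searched on both strands, TGATGNAA (the composite site of C/EBP and ATF factors) was present in Cyb5r2 only, and in 3.969% of the 32851 promoters of the same length. The motifs TGACGTCA (CRE, 1.79% of promoters), TGANTCA (AP-1, 7.808%), TGACNNNGC (antioxidant response element, 12.392%) and the TATA box, searched as TATAAA (13.616%), had no match in the 5 windows, which says only that these letters are not there. With a single match, no motifs overlapped. The Cyb5r2 window, printed for its match, lies on the minus strand at chr7:107757983-107758282, and the capitals mark the match, which reads TGATGNAA on the opposite strand and lies at positions 11 to 18 from the start. The Fam227b window lies on the minus strand at chr2:126151955-126152254, has a GC content of 70.7% against a median of 52.7% over all promoters, and is printed because it also holds the start of Dtwd1, which runs the other way. It has no match and therefore no capitals.
Cyb5r2: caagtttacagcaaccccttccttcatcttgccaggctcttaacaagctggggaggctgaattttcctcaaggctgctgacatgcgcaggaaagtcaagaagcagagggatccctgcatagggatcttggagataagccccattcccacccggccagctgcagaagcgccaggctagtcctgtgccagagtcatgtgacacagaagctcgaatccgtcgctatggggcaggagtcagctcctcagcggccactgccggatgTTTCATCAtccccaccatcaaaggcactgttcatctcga
Fam227b: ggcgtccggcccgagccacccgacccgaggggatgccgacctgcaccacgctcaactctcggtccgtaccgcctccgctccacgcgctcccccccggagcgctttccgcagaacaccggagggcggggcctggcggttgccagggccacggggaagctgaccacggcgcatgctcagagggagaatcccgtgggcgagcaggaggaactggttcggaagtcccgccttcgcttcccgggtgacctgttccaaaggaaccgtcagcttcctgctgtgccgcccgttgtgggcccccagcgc

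The libraries held from 3848172 to 10738130 counted reads. Taz itself fell from 43.8 ± 2.52 CPM (reads of a gene divided by the TMM-scaled library total in units of 1e+06 reads, ± SD, n = 4) in BL6J WT to 5.84 ± 0.24 (n = 4) in BL6J KO, from 54.8 ± 5.11 (n = 4) to 2.49 ± 1.17 (n = 3) in AJ-F1, and from 45.3 ± 10 (n = 3) to 1.98 ± 0.806 (n = 3) in CAST-F1, with adjusted p of 5.5e-10, 1.8e-11 and 1.2e-10 (edgeR quasi-likelihood test, Benjamini-Hochberg over all genes tested). Taz reads that remained in KO were thus highest in BL6J. Cardiomyocyte markers were abundant in every library, with a summed level of 77600 to 104000 CPM in WT and 68600 to 79600 CPM in KO over 9 of 9 genes. At an adjusted p under 0.05, edgeR called 5, 3 and 5 of them lower in KO in BL6J, AJ-F1 and CAST-F1. In CAST-F1 1 was called higher, and the median log2 changes were -0.38, -0.3 and -0.42.

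Over the 11 WT libraries the 6 genes together had 11 reads, spread over 7 libraries and never more than 3 in one of them for a gene. Over the 10 KO libraries they had 7362 reads, and no gene had fewer than 14 or more than 335 in a library. Every KO library stood above every WT library for all 6 genes in all 3 backgrounds, a pattern that 4.54% of the genes tested showed, and which the choice of the genes had fixed. Their summed level was 90.6 to 153 CPM in BL6J KO, 117 to 146 CPM in AJ-F1 KO and 153 to 164 CPM in CAST-F1 KO, and at most 0.433 CPM in a WT library. In bulk tissue, more cells that make an RNA and more RNA per cell cannot be told apart.

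**Figure D1:**
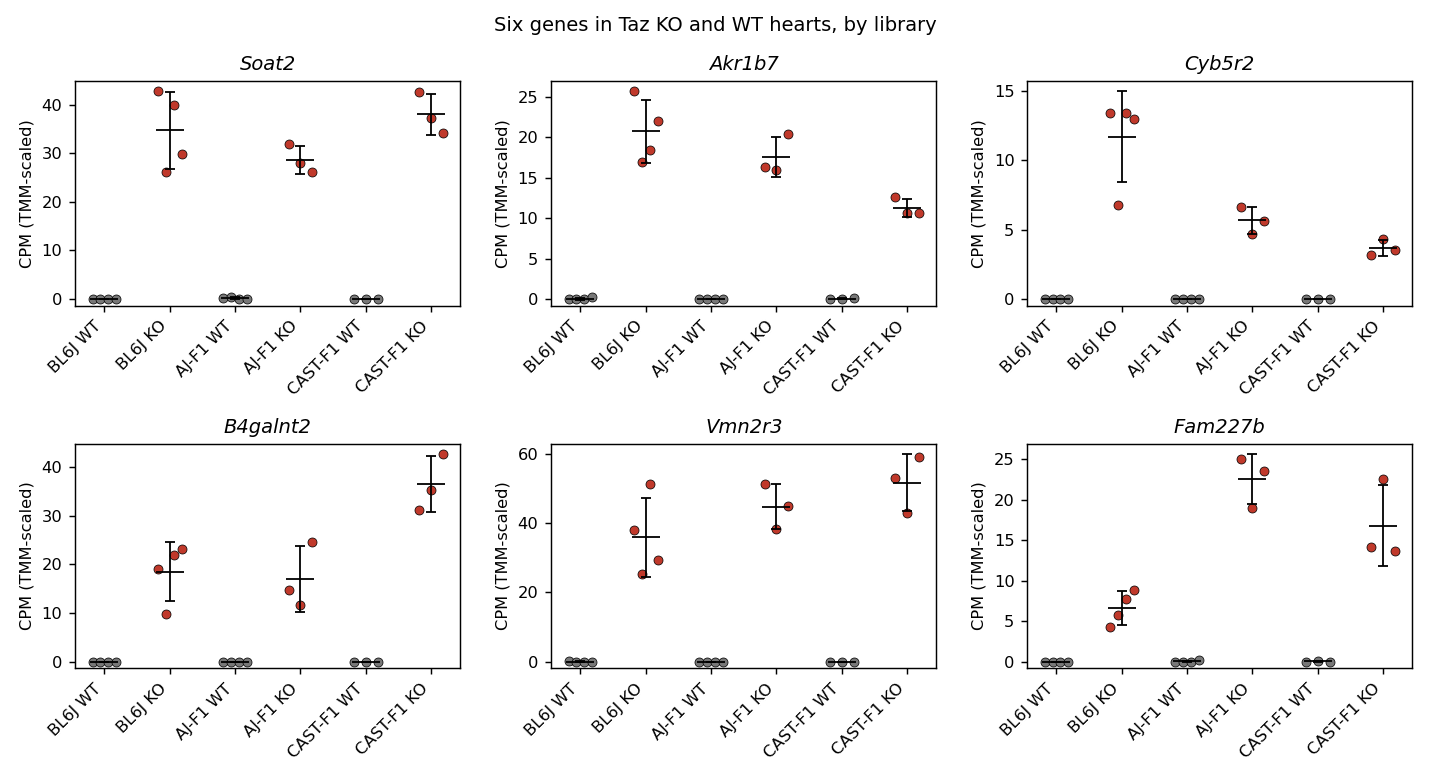
Each panel shows 1 gene with 1 point per library (vertical axis, TMM-scaled CPM; horizontal axis, background and genotype; WT grey, KO red), and the bars are the group mean ± SD. WT points lie at or near 0 in every panel, the Cyb5r2 means step down from BL6J to AJ-F1 to CAST-F1 KO, and Fam227b is lowest in BL6J KO.

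Soat2, the cholesterol acyltransferase, lies at chr15:102150526-102163469 on the plus strand of GRCm38. In BL6J KO it had 232, 123, 233 and 163 reads (42.7, 26.1, 40.0 and 29.9 CPM), where the 4 WT libraries had 0. The AJ-F1 KO libraries had 172, 148 and 195 reads, and the AJ-F1 WT libraries 1, 3, 0 and 1. CAST-F1 KO libraries had 199, 172 and 135 reads against 0 in WT. The groups did not overlap, and AJ-F1 WT, at a mean of 0.167 CPM, was the only WT group of any of the 6 genes above 0.1 CPM. Against a floor of 3 reads over the WT group, Soat2 was at least 247-fold higher in BL6J KO and at least 223-fold higher in CAST-F1 KO, and in AJ-F1 the ratio was 172 with an exact 95% counting interval of 73.3 to 533. These floors and intervals cover counting error only.

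Akr1b7, the aldehyde reductase, lies at chr6:34412334-34423142 on the plus strand. Its reads were 140, 80, 108 and 120 in BL6J KO, 88, 85 and 152 in AJ-F1 KO, and 59, 49 and 42 in CAST-F1 KO. Among WT libraries, 1 of BL6J and 1 of CAST-F1 had a single read and the others had 0. In CPM the KO values were 25.7, 17.0, 18.5 and 22 in BL6J, 16.3, 16 and 20.4 in AJ-F1, and 12.6, 10.6 and 10.6 in CAST-F1, so that every CAST-F1 KO library was below every other KO library. The KO to WT ratio was 442 in BL6J (interval 78.9 to 17500) and 198 in CAST-F1 (35.1 to 7890), and Akr1b7 was at least 181-fold higher in AJ-F1 KO.

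Cyb5r2, the cytochrome b5 reductase whose start window is printed above, lies at chr7:107748455-107758032 on the minus strand. It had 0 reads in all 11 WT libraries. Its KO reads were 73, 32, 78 and 71 in BL6J, 36, 25 and 42 in AJ-F1, and 15, 20 and 14 in CAST-F1. Its totals were the lowest of the 6 genes in AJ-F1 and CAST-F1, while in BL6J that of Fam227b was lower. In CPM these were 13.4, 6.79, 13.4 and 13.0, then 6.66, 4.71 and 5.65, then 3.21, 4.33 and 3.55. The 3 KO groups did not overlap and stood in the order BL6J, AJ-F1, CAST-F1. Cyb5r2 was at least 83.5-fold higher in BL6J KO, at least 57.4-fold higher in AJ-F1 KO and at least 21.6-fold higher in CAST-F1 KO than the WT floor.

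B4galnt2, the Sda glycosyltransferase, lies at chr11:95865943-95914891 on the minus strand and also had 0 reads in all 11 WT libraries. Its KO levels were 19.1, 9.76, 22 and 23.1 CPM in BL6J, 14.8, 11.7 and 24.6 CPM in AJ-F1, and 31.2, 35.3 and 42.6 CPM in CAST-F1. Here the CAST-F1 KO libraries stood above all other KO libraries, the reverse of Akr1b7 and Cyb5r2. The level was at least 133-fold, 181-fold and 210-fold higher than the WT floor in BL6J, AJ-F1 and CAST-F1.

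Vmn2r3, the vomeronasal receptor gene, lies at chr3:64257215-64289709 on the minus strand. It gave the most reads of the 6 genes, with 206, 119, 298 and 160 in BL6J KO, 277, 203 and 335 in AJ-F1 KO, and 248, 198 and 233 in CAST-F1 KO. A single read, in BL6J WT replicate 1, was all that the 11 WT libraries held. The KO groups overlapped, at 25.3 to 51.2 CPM in BL6J, 38.2 to 51.2 CPM in AJ-F1 and 42.8 to 59.1 CPM in CAST-F1. The ratio in BL6J was 772 (interval 138 to 30500), and the level was at least 454-fold higher in AJ-F1 KO and at least 299-fold higher in CAST-F1 KO. The start that GENCODE annotates for Vmn2r3 lies 2292 bases upstream of the RefSeq start.

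Fam227b lies at chr2:125983483-126152004 on the minus strand. Its KO reads were 23, 27, 45 and 48 in BL6J, 135, 101 and 175 in AJ-F1, and 66, 104 and 54 in CAST-F1, against 0 in BL6J WT, 2 in 1 AJ-F1 WT library and 1 in 1 CAST-F1 WT library. The KO levels of 4.23, 5.73, 7.73 and 8.81 CPM in BL6J lay below the 25.0, 19.0 and 23.5 CPM of AJ-F1 and the 14.1, 22.5 and 13.7 CPM of CAST-F1, and these last groups overlapped. Fam227b was at least 47.0-fold higher in BL6J KO, and the ratio was 344 in AJ-F1 (interval 94.5 to 2850) and 296 in CAST-F1 (52.6 to 11800).

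Levels of different genes were compared per kilobase of annotated exon. In BL6J KO, Akr1b7 stood at 16.3 ± 3.04 CPM per kb (SD, n = 4) and Soat2 at 15.7 ± 3.58, which put them at percentiles 80.2 and 79.5 of 12214 tested genes with a length. B4galnt2 followed at 10.7 ± 3.52, then Cyb5r2 at 4.21 ± 1.17, Fam227b at 2.61 ± 0.806 and Vmn2r3 at 2.06 ± 0.657. The neighbours Akr1b7 and Soat2 in this order, and Fam227b and Vmn2r3, differed by less than their SD. In CAST-F1 KO the order changed, with B4galnt2 first at 21.1 ± 3.35 (n = 3), Soat2 at 17.2 ± 1.91, Akr1b7 at 8.81 ± 0.899, Fam227b at 6.61 ± 1.96, Vmn2r3 at 2.97 ± 0.472 and Cyb5r2 at 1.33 ± 0.207. In AJ-F1 KO, Akr1b7 (13.7 ± 1.94, n = 3), Soat2 (12.9 ± 1.3), B4galnt2 (9.88 ± 3.92) and Fam227b (8.88 ± 1.22) stood above Vmn2r3 (2.57 ± 0.373) and Cyb5r2 (2.05 ± 0.352). The place of Vmn2r3 depended on its length, since its exons cover 17411 bases while its shortest coding transcript has 2670. On that transcript its level was 13.5, 16.8 and 19.3 CPM per kb in BL6J, AJ-F1 and CAST-F1 KO. Shortest coding transcripts also raised Cyb5r2, to 9.90, 4.81 and 3.14 CPM per kb, and Fam227b, to 4.14, 14.1 and 10.5. On all annotated exons, the percentiles of the 6 genes in the 3 KO groups ran from 21.7 (Cyb5r2 in CAST-F1) to 83.9 (B4galnt2 in CAST-F1).

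The KO groups of the 3 backgrounds were then compared with each other. The genes were chosen on KO against WT, but the KO counts compared here were among the values that chose them. A gene picked for a high level in 1 background is favoured there. The p-values and calls of the 6 genes are therefore a description and not an independent test. Fam227b was higher in AJ-F1 KO than in BL6J KO by 1.76 ± 0.29 on the log2 scale (SE, adjusted p = 0.0021), with all 3 libraries above all 4, and higher in CAST-F1 KO than in BL6J KO by 1.34 ± 0.30 (adjusted p = 0.012). Cyb5r2 was lower in CAST-F1 KO than in BL6J KO, with a log2 difference of -1.66 ± 0.32 (adjusted p = 0.0071). For Akr1b7 the same difference was -0.88 ± 0.24 (adjusted p = 0.04). All these p-values are from edgeR's quasi-likelihood test on the 21 libraries, adjusted by Benjamini-Hochberg over the 12333 genes. The calls were 1 of 6 genes for AJ-F1 KO against BL6J KO, beside 2.21% of all genes tested, and 3 of 6 for CAST-F1 KO against BL6J KO, beside 5.12%. DESeq2 called 2 and 4 of the 6 in these comparisons. It also called more of all genes than edgeR there, higher and lower alike, so the edgeR shares are not its background. For CAST-F1 KO against AJ-F1 KO, 0 of 6 were called by edgeR, beside 6.76%. There 2 had an unadjusted p under 0.05, a count with no share of all genes to set beside it. DESeq2, which again called more of all genes than edgeR, called 1 of the 6. That gene was B4galnt2, at 1.08 ± 0.32 (edgeR adjusted p = 0.062).

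Without passing the threshold, B4galnt2 had a log2 difference of 0.97 ± 0.30 for CAST-F1 KO over BL6J KO (edgeR adjusted p = 0.084), and the Cyb5r2 difference of AJ-F1 KO from BL6J KO was -1.04 ± 0.29 (adjusted p = 0.094). Soat2 and Vmn2r3 had the smallest spread between backgrounds. The Soat2 differences were -0.28 ± 0.22, 0.13 ± 0.22 and 0.41 ± 0.23, and those of Vmn2r3 0.32 ± 0.23, 0.52 ± 0.23 and 0.20 ± 0.24, for AJ-F1 over BL6J, CAST-F1 over BL6J and CAST-F1 over AJ-F1, none past the threshold. The Akr1b7 call was lost with CAST-F1 KO replicate 2 left out (-0.84, adjusted p = 0.16) and in 7 other of the 21 fits that left out 1 library, and the Fam227b call of CAST-F1 over BL6J without CAST-F1 KO replicate 2 (1.06, adjusted p = 0.11). Whether alleles of A/J or CAST origin aligned less well to the reference at these genes was not tested, and WT levels at 0 allow no background difference to be set against them.

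**Figure D2:**
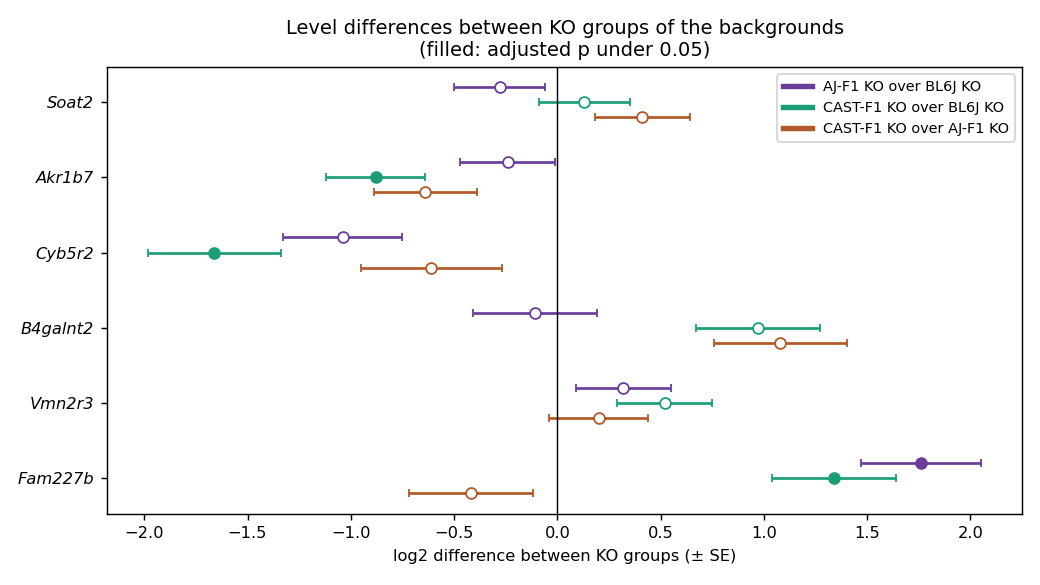
Points are log2 differences between the KO groups of a pair of backgrounds for each gene (horizontal axis, bars ± SE), filled where the adjusted p was under 0.05. The filled points are Fam227b at 1.76 and 1.34, Cyb5r2 at -1.66 and Akr1b7 at -0.88.

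Within a background, the KO libraries had their own order. BL6J KO replicate 2 was the lowest of its group for 5 of the 6 genes (all but Fam227b), with a summed level of 90.6 CPM against 126 to 153 CPM in the other 3. AJ-F1 KO replicate 2 was likewise the lowest for 5 of the 6 genes (all but Soat2), at 117 CPM against 145 and 146 CPM. In CAST-F1 each KO library was the lowest for 2 genes and the highest for 2. In CAST-F1 replicate 2 also had the lowest sum, at 153 CPM against 157 and 164 CPM. A panel of 18 genes of the integrated stress response under the transcription factor ATF4 was lowest in the same 3 libraries, although the order of the other libraries differed. Its mean log2 CPM was 6.05 in BL6J KO replicate 2 against 6.79 to 6.94 in the others of that group, 6.26 in AJ-F1 KO replicate 2 against 6.45 and 6.67, and 6.56 in CAST-F1 KO replicate 2 against 6.61 and 6.67. BL6J KO replicate 2 also had the highest summed level of adipocyte markers, at 78.8 CPM against 51.9 to 58 CPM in its group, and the fewest reads in it, 4408874. In AJ-F1 KO replicate 2 those markers were at 40.9 CPM against 41.6 and 46.8 CPM, and the part of any of these in the levels of the 6 genes was not tested. This description was chosen after the values were seen.

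Genes whose log2 CPM ran closely with each of the 6 over the 10 KO libraries, among 12138 genes, are given as a description. Each was picked for an r among the highest, and picking from so many genes gives high r by itself over 10 libraries. These libraries share 3 backgrounds and their depths, so r is also given after subtracting each background's KO mean. Fam227b ran with Gcnt1, an enzyme that branches O-glycans, at r = 0.975 (0.955 within backgrounds), with Xrn2 at 0.967 (0.743 within) and with Ssr1 at 0.958 (0.783 within). B4galnt2 ran with Riok1 at 0.957 (0.945 within), Qsox1 at 0.944 (0.885 within) and Ddit3, the stress transcription factor CHOP, at 0.938 (0.903 within). Cyb5r2 ran with Cyp27a1, a sterol hydroxylase, at 0.954 (0.865 within) and with Phlda3 at 0.951 (0.834 within). Akr1b7 ran with the glycolytic enzyme Eno1 at 0.964 (0.839 within), Eda2r at 0.960 (0.860 within) and Med4 at 0.959 (0.867 within). Soat2 ran with Tsacc at 0.940 (0.953 within), the copper chaperone Atox1 at 0.936 (0.909 within) and Tmem14c at 0.934 (0.913 within). Vmn2r3 ran with Igflr1 and Krit1 at 0.951 (0.933 and 0.945 within) and Ctu2 at 0.930 (0.969 within). Among the 6 themselves, r ran from -0.649 (Cyb5r2 with Fam227b) to 0.832 (Akr1b7 with Cyb5r2). Within backgrounds the same pairs had r of 0.392 and 0.419, and the highest was 0.741, for Cyb5r2 with B4galnt2.

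Where the 6 genes stand among the genes of the table was read from 2 limits, a WT mean under 0.1 CPM and a KO mean of at least 1 CPM. The 6 were chosen for such a pattern, so their meeting the limits is no result. Every gene of the table had at least 10 reads over the libraries, and shares are of that set. Both limits held for 30 genes in BL6J (0.204% of the table), 29 in AJ-F1 (0.197%) and 40 in CAST-F1 (0.272%), and for 12 genes in all 3 backgrounds (0.0815%). A group mean can rest on 1 library, as for the airway gene Scgb1a1 among the 30. It had 562 reads in BL6J KO, and 561 of them were in replicate 3. Of the 12, 5 were among the 6 genes examined, and Soat2 missed the WT limit in AJ-F1 only. The others with the highest lowest KO mean were Adm2, the peptide hormone adrenomedullin 2, at 51.2 CPM, Fgf21, the endocrine stress hormone, at 38.6 CPM, Vat1l at 1.73 CPM, Fut1, a fucosyltransferase of the H antigen, at 1.70 CPM, and Mei4, a meiotic recombination gene, at 1.52 CPM. Fibcd1 and Catsperd complete the 12. By that measure Vmn2r3 (35.9 CPM) stood first of the 6 and Cyb5r2 (3.69 CPM) last, and the nearest genes of the same kind in some backgrounds were Ostn above, at 47.6 CPM, and Sh2d6 below, at 2.68 CPM. The number of genes that met the limits moved with them, and 620, 502 and 524 genes had a WT mean under 0.1 CPM in BL6J, AJ-F1 and CAST-F1 to begin with.

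**Figure D3:**
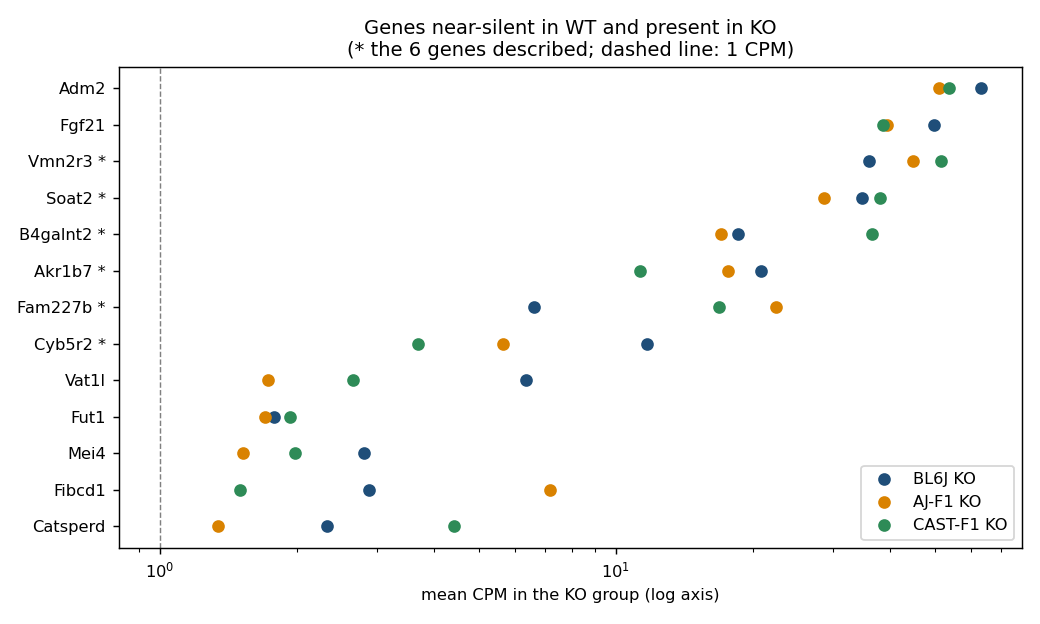
Mean CPM in the 3 KO groups (log axis) is shown for the 12 genes that met the limits in all 3 backgrounds and for Soat2, with an asterisk on the 6 genes examined. Adm2 and Fgf21 are at 38.6 CPM or more in every KO group, the 6 genes at 3.69 CPM or more, and the lowest KO means of the 5 remaining genes are at most 1.73 CPM.

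The relatives of the 6 genes were not used to choose them, and their KO against WT contrasts were tested. In BL6J 12.8% of all genes tested were higher in KO and 9.51% lower, in AJ-F1 12.9% and 15.7%, and in CAST-F1 10.7% and 9.59%, with a median log2 change over all genes of 0.01, 0.01 and -0.02.

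Among cytochrome b5 reductases, Cyb5r1 rose with Cyb5r2, from 32.3 ± 4.3 to 372 ± 68.1 CPM in BL6J (n = 4 and 4), by 3.52 ± 0.16 on the log2 scale (SE, edgeR adjusted p = 7.1e-13). For AJ-F1 the change was 3.46 ± 0.17 (adjusted p = 9.9e-13) and for CAST-F1 3.70 ± 0.19 (adjusted p = 6.8e-12), with KO means of 351 ± 26.7 and 405 ± 15 CPM. Cyb5r3, the methaemoglobin reductase of red cells, was not called, at 0.57, -0.32 and 0.06, and neither was Cyb5rl. Cyb5r4 was called in AJ-F1 only (0.62 ± 0.22, adjusted p = 0.038), a call that 7 of the alternatives lost. The electron acceptor of the mitochondrial outer membrane, Cyb5b, rose in BL6J (0.55 ± 0.15) and AJ-F1 (0.75 ± 0.16). Over the 9 tested genes of the list, 3 rose in BL6J, 3 rose and 1 fell in AJ-F1 (Cyb5a, -0.62), and 1 rose in CAST-F1, with medians of 0.30, -0.14 and -0.04.

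Aldo-keto reductases moved in both directions. Akr1b8, which lies 43.9 kb from Akr1b7 on chromosome 6, rose from 4.06 ± 0.842 to 17.7 ± 3.83 CPM in BL6J, from 4.23 ± 1.02 to 15.1 ± 1.17 in AJ-F1, and from 2.06 ± 0.612 to 8.09 ± 1.01 in CAST-F1. Those are log2 changes of 2.11 ± 0.22, 1.85 ± 0.22 and 1.96 ± 0.29 (edgeR adjusted p = 2.4e-07, 2.7e-06 and 3.3e-05). Akr1b3, the aldose reductase of the polyol pathway, fell by 0.83, 0.88 and 0.81 on the log2 scale, from 300, 333 and 335 CPM. Akr1b10 lies between Akr1b8 and Akr1b7, at 15.4 kb from Akr1b7. It fell in BL6J (-0.69 ± 0.14) and AJ-F1 (-0.82 ± 0.15), and in CAST-F1, at -0.44 ± 0.16, it was not called (edgeR adjusted p = 0.05 after rounding). Akr1a1, the general aldehyde reductase, rose by 0.82, 0.39 and 0.61, and the AJ-F1 call (adjusted p = 0.043) was lost in 17 of the alternatives. Of the 7 tested genes, 2 rose and 3 fell in BL6J, 3 and 3 in AJ-F1, and 2 and 2 in CAST-F1.

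**Figure D4:**
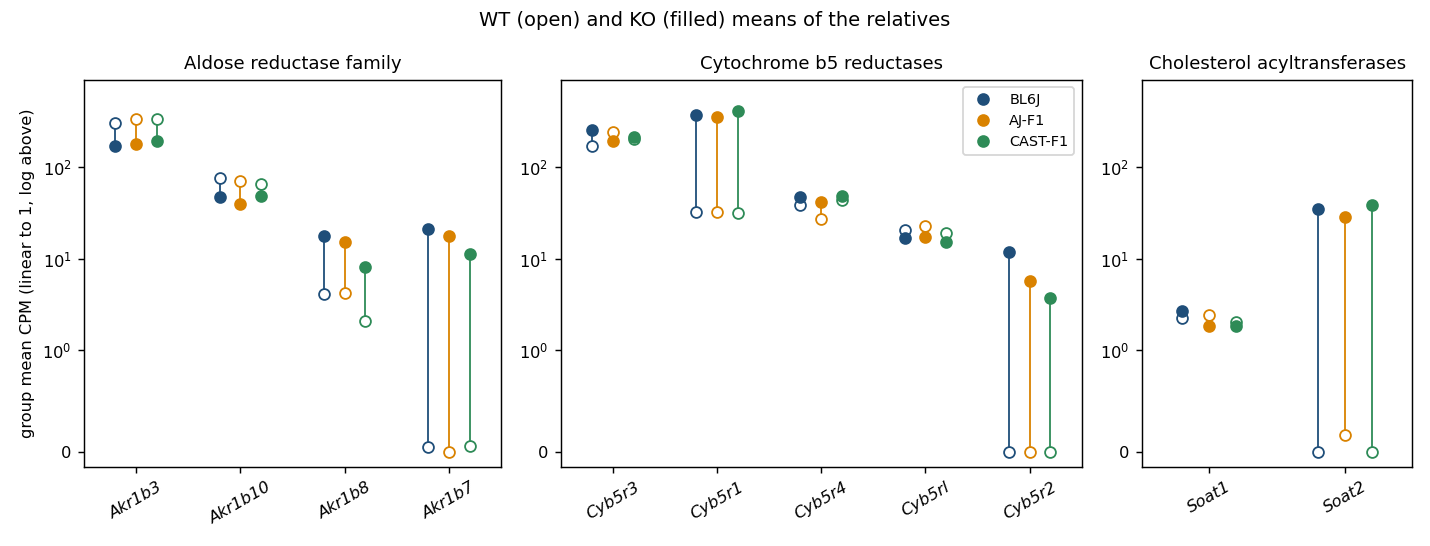
WT means (open) and KO means (filled) of 11 genes of 3 families are joined for each background (vertical axis, CPM, linear up to 1 and log above). The long lines are those of Akr1b7, Cyb5r2 and Soat2, which start at or near 0, while Cyb5r1 starts near 32 CPM and Akr1b8 between 2.06 and 4.23 CPM.

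Soat1, the cholesterol acyltransferase found in most tissues, stood near 2 CPM in WT and KO and was not called, with log2 changes of 0.28 ± 0.33, -0.39 ± 0.36 and -0.15 ± 0.42 (edgeR adjusted p = 0.61, 0.43 and 0.84). Among the other genes of sterol and neutral lipid ester handling, Ces1d, a carboxylesterase, fell by 3.61, 2.54 and 3.85 on the log2 scale, and Dgat2, which makes triglyceride, fell by 0.77, 1.00 and 0.91. Mttp, which loads lipid onto apolipoprotein B, rose in BL6J (1.08 ± 0.25, adjusted p = 0.0034) and Dgat1 rose in CAST-F1 (0.56 ± 0.19, adjusted p = 0.038, lost in 6 alternatives). The medians over 14 genes were 0.02, -0.27 and 0.06.

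B4galnt1, which makes complex gangliosides, had log2 changes of 0.08 ± 0.39, -0.35 ± 0.40 and 0.31 ± 0.47 at 2 to 4 CPM, none past the threshold. The St3gal sialyltransferases, which add sialic acid to galactose, moved in both directions. St3gal4 fell by 1.43, 1.70 and 1.08 (edgeR adjusted p = 3.3e-05, 1.4e-05 and 0.0025), St3gal1 fell in BL6J (-0.73 ± 0.23, lost in 4 alternatives) and AJ-F1 (-1.06 ± 0.25), and St3gal6 rose in AJ-F1 (0.51 ± 0.13) and CAST-F1 (0.82 ± 0.14). Over 7 genes the medians were -0.22, -0.35 and -0.20.

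Few other chemoreceptor genes were tested. Of the vomeronasal receptors, 3 others were in the table, and Vmn1r58, the only one tested, had 2.63 to 4.93 CPM in WT and log2 changes of -0.27 ± 0.36, 0.36 ± 0.40 and 0.07 ± 0.42 (edgeR adjusted p = 0.65, 0.53 and 0.93). Vmn2r57, of the same subfamily as Vmn2r3, had group means of at most 0.312 CPM. Of 9 olfactory receptors present, 5 were tested, with medians of -0.22, -1.17 and 0.11, and Olfr78 fell in AJ-F1 (-1.37 ± 0.51, adjusted p = 0.049), a call lost in 21 of the alternatives. Fam227a was too low to test, with group means of 0.569 to 1.38 CPM.

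For comparison, 15, 15 and 16 of the 18 genes of the ATF4 panel were higher in KO in BL6J, AJ-F1 and CAST-F1, with medians of 4.18, 3.82 and 4.31. Asns, asparagine synthetase, rose from 4.18 to 358 CPM in BL6J and Trib3, a pseudokinase, from 3.37 to 178 CPM. The panel was chosen with results of these data known and includes Fgf21, which met the 2 limits above.

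Neighbouring genes were not used to choose the 6 either. Of the 24 nearest table genes, 23 were tested, and 4 rose and 2 fell in BL6J, 5 and 4 in AJ-F1, and 2 and 2 in CAST-F1. Nearest is meant among the genes of the table, and the gaps ran from an overlap to 1176.4 kb (Eif3f by Cyb5r2). At Fam227b, Dtwd1, whose human counterpart modifies tRNA, starts 137 bases away on the opposite strand and rose in each background, from 2.45 ± 1.47 to 7.5 ± 2.58 CPM in BL6J (log2 1.62 ± 0.33, edgeR adjusted p = 0.00082). Its rise was 1.19 ± 0.33 for AJ-F1 (adjusted p = 0.0094), and 1.25 ± 0.36 for CAST-F1 (adjusted p = 0.016). The AJ-F1 call was lost without AJ-F1 KO replicate 2 (0.94) and the CAST-F1 call without CAST-F1 WT replicate 1 (1.22). Galk2, an N-acetylgalactosamine kinase, overlaps the far end of Fam227b on the opposite strand with 283 shared exon bases, and rose in BL6J (1.03 ± 0.21, adjusted p = 0.00083) and AJ-F1 (0.57 ± 0.21, adjusted p = 0.049, lost in 16 alternatives), while CAST-F1 had 0.56 ± 0.24 (adjusted p = 0.098). Fgf7, a growth factor for epithelium that lies within the Fam227b span without shared exon bases, rose in BL6J (2.00 ± 0.52, adjusted p = 0.007) from 0.577 CPM. The rise of Fam227b itself was at least 47.0-fold in the same background, where 163 Galk2 reads in WT came with 0 of Fam227b. The part of these neighbours in the level of Fam227b was not tested.

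Around Soat2, changes of Spryd3, Igfbp6, Csad and Zfp740 did not pass the threshold. Ppfibp2 shares 129 exon bases with Cyb5r2 on the opposite strand and fell in CAST-F1 (-0.88 ± 0.22, edgeR adjusted p = 0.0054). Its WT groups held 722 to 1234 reads where Cyb5r2 had 0, and the part of Ppfibp2 in the level of Cyb5r2 was not tested. Nlrp10, on the other side at a distance of 1163.8 kb, fell in BL6J (-0.88 ± 0.24) and CAST-F1 (-1.33 ± 0.28). On the Vmn2r3 chromosome, Slc33a1 and Gmps, 292.4 and 234.6 kb away, rose in AJ-F1 (1.13 ± 0.25 and 0.75 ± 0.19). Both calls were lost with only the AJ-F1 libraries fitted (edgeR adjusted p = 0.082 and 0.12). By B4galnt2, Abi3 and Gngt2, 23.5 and 20.2 kb away, fell in AJ-F1 (-0.95 ± 0.33 and -0.81 ± 0.30), calls lost in 4 and 15 of the alternatives. By Akr1b7, besides Akr1b8 and Akr1b10, Bpgm fell in AJ-F1 (-0.60 ± 0.21, edgeR adjusted p = 0.04, lost in 9 alternatives). Genes of the opposite strand that were not analysed here share 348 exon bases with Akr1b7 (Gm13857, a transcribed processed pseudogene) and 263 with B4galnt2 (Gm11534, annotated as antisense). Use of strand in the counting is not given in the sources used here, so reads of a gene and of its opposite-strand partner cannot be told apart at these genes. Stretches of 50 bases shared with other genes made up 0.755% of Soat2, 2.889% of Cyb5r2, 3.093% of Vmn2r3, 9.657% of Fam227b, 10.042% of B4galnt2 and 15.828% of Akr1b7. Both strands were searched, so the overlaps above are part of these shares. For Cyb5r2, Fam227b and B4galnt2 every shared stretch was found in Ppfibp2, Galk2 and Gm11534. For Akr1b7 164 of 195 were in Gm13857, and for Vmn2r3 271 of 550 were in Vmn2r2.

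**Figure D5:**
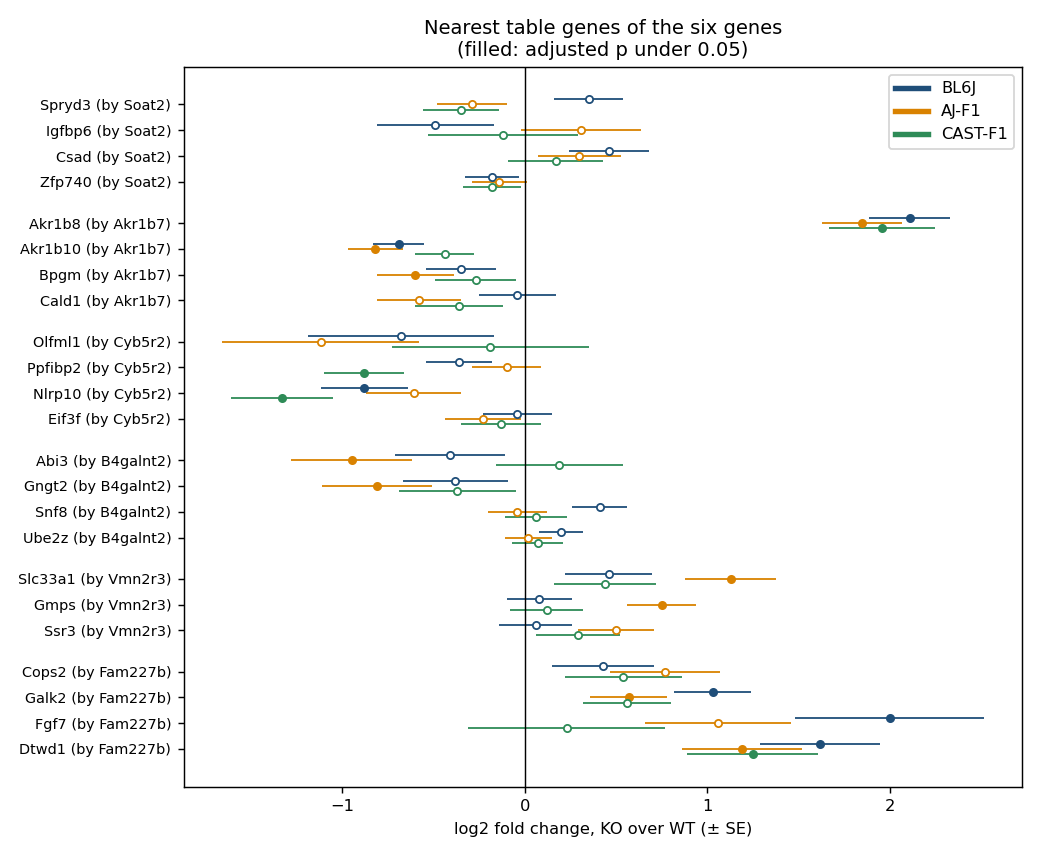
Log2 fold changes of KO over WT (horizontal axis, ± SE) are shown for the 23 tested neighbours by background, filled where the adjusted p was under 0.05. Dtwd1 by Fam227b and Akr1b8 by Akr1b7 are filled on the right in all 3 backgrounds.

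Markers of tissues that are known to make these genes were summed in each library. No values of the 8 testis germ cell markers were analysed here. Of 9 liver markers 4 were, with a summed level of 1.40 to 4.21 CPM in WT and 1.61 to 15.9 CPM in KO, and of 7 markers of steroid-making adrenal cells 3 were, at 0.328 to 2.01 CPM in WT and 0.507 to 5.52 CPM in KO. Star, which brings cholesterol into mitochondria for steroid synthesis and was the adrenal marker tested, rose in BL6J (log2 1.56 ± 0.44, edgeR adjusted p = 0.012, lost without BL6J KO replicate 1 at 1.31), and stood at 1.36 ± 0.51 in AJ-F1 and 1.01 ± 0.76 in CAST-F1. The part of such cells in the level of Akr1b7 was not tested. In the 5 KO libraries whose adrenal sum did not exceed the highest WT library the 6 genes summed to 117 to 164 CPM. A sum over 6 genes, here and for the tissues that follow, does not show the level of a single gene. Akr1b7 itself had 10.6 to 25.7 CPM in the KO libraries. Of 9 intestinal markers 3 were analysed, at 9.51 to 58.6 CPM in WT and 20.3 to 79.5 CPM in KO, and the part of intestinal cells was not tested. In 9 of 10 KO libraries the intestinal sum did not exceed that of the highest WT library, and the 6 genes there summed to 90.6 to 164 CPM. Of 5 markers of olfactory and vomeronasal neurons 2 were present, at up to 0.866 CPM in WT and 2.45 CPM in KO. Trpc2, the channel of vomeronasal neurons, had 0 reads in 7 KO libraries, each with 160 or more reads of Vmn2r3. It had 4 reads in BL6J KO replicate 2, 13 in AJ-F1 KO replicate 2 and 8 in CAST-F1 KO replicate 3. Among WT libraries, BL6J replicate 3 had 1, AJ-F1 replicate 3 had 2 and the others had 0. The part of such cells in the level of Vmn2r3 was not tested. Of 5 epididymis markers 2 were present, at up to 1.53 CPM in WT and 2.81 CPM in KO.

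Some markers of nearby tissue stood apart in single libraries, and the part of such tissue in the levels of the 6 genes was not tested. Scgb1a1, the airway secretory protein and the 1 of 4 lung markers analysed here, had 561 reads in BL6J KO replicate 3, 101 in AJ-F1 KO replicate 3 and 20 in AJ-F1 WT replicate 4. It was at 0 in 6 KO libraries, where the 6 genes summed to 126 to 164 CPM. Atrial markers (3 of 3 present) summed to 3.21 to 177 CPM in WT and 8.62 to 359 CPM in KO, and in the 6 KO libraries not above the highest WT library the 6 genes summed to 117 to 164 CPM. Adipocyte markers (6 of 7) summed to 30.8 to 50.3 CPM in WT and 40.9 to 78.8 CPM in KO, and in the 3 KO libraries not above the highest WT library the 6 genes summed to 117 to 146 CPM. The adipocyte marker Cidea rose in BL6J (0.61 ± 0.13, edgeR adjusted p = 0.0011). Skeletal muscle markers (3 of 6) summed to at most 1.65 CPM in any library. Markers of fibroblasts (5 of 5) had median sums of 320 CPM in KO and 460 in WT, and those of endothelium (4 of 4) 689 and 983 CPM. In AJ-F1 edgeR called 5 of 5 fibroblast markers and 3 of 4 endothelial markers lower in KO, with median log2 changes of -0.86 and -1.03, and the part of this in the AJ-F1 calls of relatives and neighbours was not tested. In BL6J 1 fibroblast marker was called lower, and the medians were -0.06 and -0.40 in BL6J and -0.17 and -0.52 in CAST-F1. Those of blood (5 of 5) had medians of 141 CPM in KO and 234 in WT, and those of macrophages (5 of 5) 116 and 105 CPM.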

How the data were processed

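Strand-specific libraries of polyA RNA were made, per the labels' protocols. Reads were aligned and counted by the authors with HISAT and featureCounts on GRCm38.p6, and DESeq2 is also named, per the submitters' processing notes, without versions or the use of strand. The deposited raw counts per gene were used for every value, and the columns of log2 fold changes and p-values that the authors deposited were not used. Counts of 14732 genes in 21 libraries were filtered with filterByExpr over 6 groups (12333 genes, 99.91% of the counts) and tested with edgeR 4.0.16 (limma 3.58.1, R 4.3.3) by the quasi-likelihood F test with TMM factors (0.86 to 1.07), robust estimation and 6 group means, without a covariate. Two-sided p-values had a Benjamini-Hochberg adjustment and a threshold of 0.05. The common biological coefficient of variation was 20.3%. CPM values are TMM-scaled. Log2 CPM for correlations had a prior count of 2.

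The 6 genes and all gene lists were chosen with earlier results of these data known. Named besides them were Taz, the 3 genes most like each (1 of which is not reported here), the 2 nearest table genes on each side and overlapping genes, up to 4 genes per family list by smallest adjusted p, relatives of the same subfamily, and 5 others near-silent in WT. Positions are from GENCODE M21 and promoters from RefSeq. No 2 libraries were identical. Alternatives were another normalisation, other filters, DESeq2 1.42.0, only the groups compared, a replicate block, other limits and each library left out in turn.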

Additional observations from a re-analysis of the deposited data

Results flagged for a closer look

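Cyb5r2 in BL6J KO had 1 library far from the others of its group, since replicate 2 stood at 6.79 CPM and the other 3 at 13.0 to 13.4 CPM. The gap to the nearest was 0.941 of the group's whole range, above the Dixon critical value of 0.829 for 4 samples. The 4 BL6J KO libraries were examined in this way for each of the 6 genes, and chance picks out about 1 group in 20.

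Between the KO groups of the backgrounds, 4 of 18 differences were past the threshold by edgeR's quasi-likelihood test. They were 1 of 6 for AJ-F1 over BL6J, beside 2.21% of all genes tested, and 3 of 6 for CAST-F1 over BL6J, beside 5.12%. For CAST-F1 over AJ-F1 there were 0 of 6, beside 6.76%. The KO counts had also served to choose the genes. Fam227b differed by 1.76 on the log2 scale for AJ-F1 over BL6J and by 1.34 for CAST-F1 over BL6J. For CAST-F1 over BL6J, Cyb5r2 differed by -1.66 and Akr1b7 by -0.88. The Akr1b7 call was lost in 9 alternatives and the Fam227b call for CAST-F1 over BL6J in 1.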

How the results depend on the processing

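With each library left out in turn, the genes called higher and lower in KO numbered 1285 to 1929 and 845 to 1575 in BL6J, 976 to 2179 and 1159 to 2401 in AJ-F1, and 932 to 1830 and 827 to 1458 in CAST-F1. Between KO groups the counts of higher and lower genes were 62 to 183 and 57 to 289 for AJ-F1 over BL6J, 148 to 455 and 154 to 637 for CAST-F1 over BL6J, and 161 to 675 and 184 to 721 for CAST-F1 over AJ-F1. With only the compared groups in the fit, 579 genes were higher and 744 lower in AJ-F1 KO than WT, 2110 and 1990 in CAST-F1 KO than WT, 434 and 643 in CAST-F1 KO than BL6J KO, and 1004 and 1109 in CAST-F1 KO than AJ-F1 KO. DESeq2 called 268 genes lower in AJ-F1 KO than BL6J KO. A count moved by over 1.5 times without AJ-F1 KO replicate 1, 2 or 3, AJ-F1 WT replicate 3, BL6J KO replicate 1, 3 or 4, or CAST-F1 KO replicate 1, 2 or 3. The causes were not tested.

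Genes near-silent in WT and present in KO numbered 25 to 36 in BL6J, 27 to 33 in AJ-F1, 38 to 57 in CAST-F1 and 10 to 13 in all 3 with a library left out. With a WT limit of 0.2 CPM they were 55 in BL6J and 63 in CAST-F1, and with 0.05 CPM 22 in CAST-F1 and 6 in all 3. A KO limit of 0.5 CPM gave 69, 56 and 65 in the 3 backgrounds, and 2 CPM gave 17, 15 and 21, and 7 in all 3. The likeness of Akr1b7 with Eno1 was 0.839 with each background's mean subtracted.

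B4galnt2 in AJ-F1 KO over BL6J KO turned positive without AJ-F1 KO replicate 2 (0.09) and without BL6J KO replicate 4 (0.01), in a range of -0.50 to 0.09. Its difference of CAST-F1 over BL6J was called by DESeq2 (adjusted p = 0.049) and with only the compared groups (0.035 by edgeR), and that of CAST-F1 over AJ-F1 likewise (0.028 and 0.016). Cyb5r2 in AJ-F1 over BL6J was called by DESeq2 (-1.05), with only the compared groups (edgeR adjusted p = 0.046), without AJ-F1 WT replicate 3 (0.047) and without BL6J KO replicate 2 (-1.23, 0.024). With only the compared groups, the AJ-F1 calls of Cyb5a (-0.61, 0.1) and St3gal6 (0.51, 0.12) were lost.

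Deviations from the group means of same-numbered libraries had r from -0.229 to 0.0815 for WT with KO within a background and from -0.182 to 0.128 for KO with KO across backgrounds, so the numbers were not taken to pair the libraries, although replicate 2 had the lowest sum of the 6 genes in each KO group. A replicate block gave 1487 higher and 1103 lower genes in BL6J, and with it Akr1b7 in CAST-F1 over BL6J was -0.82 (edgeR adjusted p = 0.12) and B4galnt2 passed in CAST-F1 over BL6J (1.15, 0.037) and over AJ-F1 (1.16, 0.026). Depth limits Cyb5r2 most, with 14 to 20 reads in CAST-F1 KO.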
